A study of Mus musculus with 4 samples.

Results

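The 10 genes described here carry cholesterol out of cells or answer to the sterol sensors that control that export. The rule names them by symbol and uses no measured value, though it was written with earlier results of these data known, and all 10 were found among the 31253 genes of the matrix. They are the receptors Nr1h3 and Nr1h2, the exporters Abca1 and Abcg1, the LXR targets Pltp, Mylip, Lpcat3 and Srebf1, and the lysosomal cholesterol carriers Npc1 and Npc2. Their RNA was counted in single mouse peritoneal cells from 4 samples, 1 per group, all labelled as 24 weeks old, and the design text gives male for the high-fat groups. The groups were Apoe-/- mice on a high-fat diet that were given an anti-CVI-mAb, Apoe-/- mice on a high-fat diet, Apoe-/- mice on a normal diet, and C57BL/6 mice on a normal diet. Apoe-/- mice lack apolipoprotein E throughout the body from birth, and the 3 Apoe-/- groups share that loss. The high-fat feed held 21% fat and 0.15% cholesterol and was given for 20 weeks. Both high-fat groups were returned to a normal diet before the injections began. The antibody dose was 3 mg, injected into the peritoneal cavity, where the cells were later taken, and the other 3 groups were injected with PBS there.

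Liver X receptors are nuclear receptors that bind oxidised cholesterol derivatives and sit on DNA as pairs with retinoid X receptors. When sterol builds up in a macrophage, they switch on the membrane pumps that hand cholesterol to apolipoproteins and lipoproteins, and they switch on a ubiquitin ligase that limits the uptake of lipoprotein cholesterol. Peritoneal macrophages are a classic cell for studying this loop, since they take up dying cells and lipoproteins and must dispose of the sterol.

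The 4 libraries are told apart only by a number at the end of each barcode, and neither labels nor headers say which group a number stands for. They are called libraries 1 to 4 here, no group was assigned to them, and no genotype, diet or antibody was compared. Libraries 1 to 4 kept 3611, 6023, 5311 and 5919 barcodes. The filters removed 42.3% of barcodes in library 1 and 10.97% to 19.3% in the others. Macrophages were barcodes with at least 2 UMIs of Adgre1 (which encodes F4/80) and none of Cd79a or Cd3e, and numbered 1538, 4218, 4334 and 5017. Their median depth was 8219 UMIs in library 1 and 12507 to 13951 UMIs in the others, and their summed UMIs ran from 13261280 to 67419437. Of 9 macrophage markers, Adgre1 was fixed by that gate, and the other 8 were also detected in every library; the 8 mesothelial and stromal markers summed to at most 0.452 of every 1000000 UMIs. B cells (at least 2 Cd79a UMIs, no Adgre1 or Cd3e) numbered 591, 573, 311 and 276, and T cells (at least 2 Cd3e UMIs, no Adgre1 or Cd79a) 61, 52, 79 and 74. Libraries share few cell barcodes: 35 of 20829 barcode sequences of kept cells occurred in more than 1 library.

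Levels below are counts per 1000000 UMIs of the same cells, abbreviated CPM. In a library read from the 3′ end, a UMI count does not scale with gene length, but capture differs between genes, so an order of levels between genes is an order of UMIs.

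Pltp and Npc2 were the most abundant of the 10 genes in macrophages, Abca1 stood below them, and Nr1h3 was the least abundant. Pltp encodes the phospholipid transfer protein, a secreted protein that moves phospholipid between lipoproteins. Its level was 1933, 1069, 601 and 598 CPM in macrophages of libraries 1 to 4. Npc2, a small soluble protein that lifts cholesterol from the lysosome's lumen, stood at 1372, 1051, 1215 and 1078 CPM. The order of these genes differed by library: Pltp was above Npc2 in libraries 1 and 2 and below it in libraries 3 and 4.

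Abca1, the pump that passes cholesterol and phospholipid to lipid-poor apolipoprotein A-I, stood at 259.5, 118, 118 and 98.6 CPM. Libraries 2 and 3 had overlapping counting intervals, and library 1 stood above all others. After each macrophage with at least 3000 UMIs was thinned to that depth, 47.5%, 27.6%, 26.6% and 24.4% of these macrophages held an Abca1 UMI (unthinned, 56.8% to 68.9%). Abcg1, the partner pump that loads cholesterol on to mature high-density lipoprotein, stood at 59.1, 55.9, 46.4 and 31.8 CPM. Libraries 1 and 2 had overlapping intervals for Abcg1, and library 4 was the lowest.

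The RefSeq promoters of Abca1 and Srebf1 are shown because, of the 8 members with a promoter in the table used, these were the ones that held an imperfect LXR element. An LXR element is a pair of receptor sites set apart by a few bases. The letters searched were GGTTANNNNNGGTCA on both strands, in the 250 bases before the start, and they were chosen with the Abca1 sequence in view. They occurred in 15 of 32851 promoters (0.0457%). The stricter direct repeat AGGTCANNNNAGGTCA occurred in 5 promoters (0.0152%) and in 0 of the members' promoters. Both sequences below are from GRCm38.p6, read 5′ to 3′ on the minus strand from which each gene is transcribed, with the match in capitals; the capitals read on the opposite strand as the letters searched.
Abca1, chr4:53159896-53160145: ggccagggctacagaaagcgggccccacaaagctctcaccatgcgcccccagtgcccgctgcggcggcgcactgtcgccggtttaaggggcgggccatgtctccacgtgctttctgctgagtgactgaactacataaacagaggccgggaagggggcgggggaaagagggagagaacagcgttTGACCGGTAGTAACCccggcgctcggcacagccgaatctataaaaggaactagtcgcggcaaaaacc
Srebf1, chr11:60210472-60210721: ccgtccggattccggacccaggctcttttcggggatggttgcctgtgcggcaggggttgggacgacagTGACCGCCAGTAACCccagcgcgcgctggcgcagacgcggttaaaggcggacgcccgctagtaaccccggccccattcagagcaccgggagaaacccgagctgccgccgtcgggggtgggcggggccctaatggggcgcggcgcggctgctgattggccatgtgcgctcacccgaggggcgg
The first capital lies 67 bases before the start in Abca1 and 182 bases before it in Srebf1. The Srebf1 start lies inside the annotated gene, which spans bases 60199089 to 60222581 of chromosome 11. The Abca1 sequence also holds an E-box, CACGTG, 147 bases before the start, as do 6.02% of all promoters. A match describes letters and is no measure of binding.

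The receptors differed in level. Nr1h2 (LXRβ, the form made in most tissues) stood at 60.9, 46.9, 43.9 and 44.5 CPM in macrophages of libraries 1 to 4, with libraries 2, 4 and 3 not separated by their intervals. Nr1h3 (LXRα, the form enriched in macrophages, liver and fat) stood at 9.43, 5.06, 4.54 and 3.71 CPM, from 125, 280, 286 and 250 UMIs. Nr1h2 gave more UMIs than Nr1h3 in every library. At 3000 UMIs per cell, 1.24% to 2.68% of macrophages held an Nr1h3 UMI and 12.4% to 15.8% held an Nr1h2 UMI (unthinned, 4.40% to 6.89% and 39.4% to 45.6%).

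The remaining targets sat between these extremes. Mylip, the ubiquitin ligase (IDOL) that limits uptake of lipoprotein cholesterol, stood at 76.5, 43.3, 38.5 and 44.8 CPM. Lpcat3, which puts polyunsaturated fatty acids into phospholipids, stood at 32.0, 36.3, 37.3 and 32.5. Srebf1, which encodes the transcription factor that drives fatty acid synthesis, stood at 24.1, 21.9, 13.9 and 12.04. Lpcat3 was the one member that was not highest in library 1. Npc1, the membrane protein that takes cholesterol from Npc2 and exports it from the lysosome, stood at 60.8, 35.8, 30.9 and 30.0 CPM. Lpcat3 overlaps Emg1, Srebf1 overlaps Rai1, Pltp overlaps Ctsa, and Npc1 overlaps Rmc1 and Gm15956, each on the opposite strand. The count's use of strand is not given, so reads of these pairs cannot be told apart here.

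**Figure D1:**
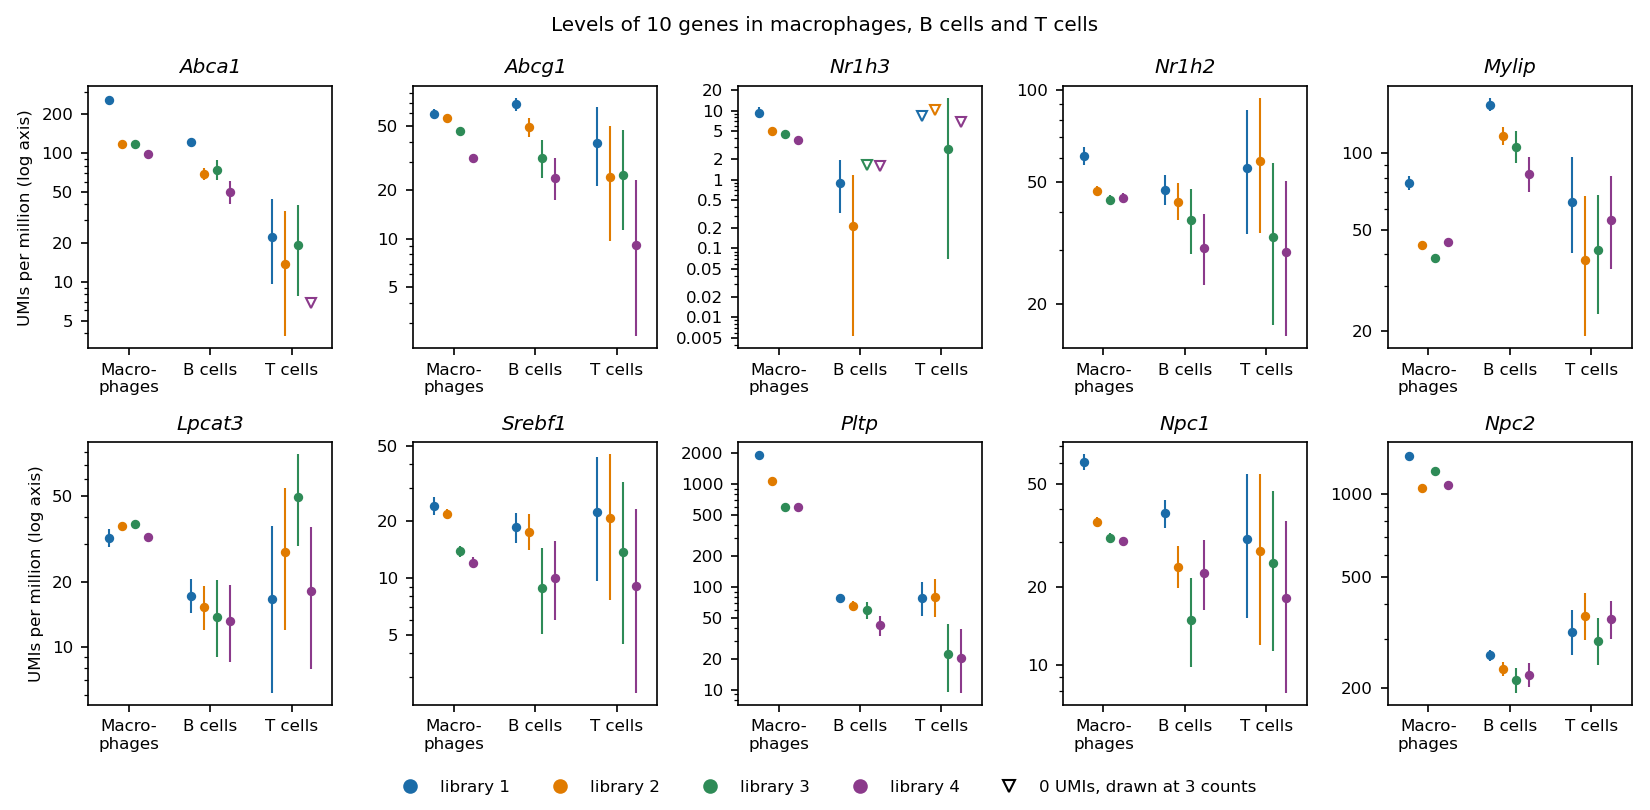
CPM (log axis) of each of the 10 genes in macrophages, B cells and T cells. Each point is 1 library with its exact Poisson 95% interval, and open triangles mark sets with 0 UMIs, drawn at the level of 3 counts. Pltp and Npc2 stand higher in macrophages than in both lymphocyte sets in every library, Mylip stands lower in macrophages than in B cells, and Nr1h2 overlaps between macrophages and T cells.

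Across libraries, macrophage levels of 4 members spanned at least 2-fold: Pltp 3.24-fold, Abca1 2.63-fold, Nr1h3 2.54-fold and Npc1 2.03-fold. Npc2 and Lpcat3 had the narrowest spans, 1.31-fold and 1.16-fold. Of the 9 members that reached 20 CPM, 3 spanned at least 2-fold, against 30.7% of all 6300 genes at that level. Of the 10 members, 9 were highest in library 1, as were 65.6% of all genes, and the median gene stood 0.33 (log2) above its mean over libraries there. With each library scaled to the median gene, Pltp was the one member at 2-fold or more (2.35-fold), and 5 members were highest in library 1. Without library 1, 0 members spanned 2-fold. Median mitochondrial share (5.16% of UMIs in library 1, 3.63% to 4.24% in the others) and depth moved with the library, and their part in these spans was not tested.

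Apoe, itself an LXR target and the acceptor that Abca1 lipidates in macrophages, gave 30.1, 863, 738 and 29778 CPM in macrophages of libraries 1 to 4. The labels name 3 Apoe-/- groups and 1 C57BL/6 group, and these levels were not used to assign them. The levels of Abca1 and Apoe had different orders over the libraries. Since Apoe is the gene lost in the Apoe-/- groups, its order cannot be told apart from genotype. Whether LXRs control both genes in these cells was not tested.

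Macrophages were next set against the B and T cells of the same library. The cells had been sorted for F4/80, and the lymphocytes here are those that came through the sort. Macrophages held more Abca1, Lpcat3, Pltp and Npc2 than B cells and less Mylip. The rule for a call was at least 20 CPM in the higher set and at least 1.5-fold in 1 direction, in all 4 libraries. By it, 4 of 8 members at that level were higher, against 22.3% of all 5367 genes, and 1 was lower, against 16.6%. Nr1h3 and Srebf1 were below the minimum level.

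Pltp showed the widest gap between macrophages and B cells of the members called. Its macrophage levels of 598 to 1933 CPM stood against 78.0, 65.8, 59.1 and 42.2 in B cells, a median log2 ratio of 3.92. Npc2 stood at 262, 234, 213 and 222.5 CPM in B cells, and its median log2 ratio of macrophages to B cells was 2.33. The sets did not overlap for either gene. Lpcat3 had 17.3, 15.3, 13.8 and 13.2 CPM in B cells (median log2 ratio 1.26), and it too stood higher in macrophages of every library.

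Abca1 was higher in macrophages, but B cells carried a good deal of it. B cells of libraries 1 to 4 held 123, 68.8, 74.0 and 49.6 CPM, 47.3% to 63.0% of the macrophage level, and the log2 ratios of macrophages to B cells were 1.08, 0.77, 0.66 and 0.99. Library 1 was the highest and library 4 the lowest in both cell sets. This call was lost when cells above 5% mitochondrial UMIs were left out (median log2 ratio 0.35) and when cells were weighted equally (0.84). Median mitochondrial share was 6.24% to 7.44% in B cells and 3.63% to 5.16% in macrophages. The 5% limit thus left out most B cells of every library and most macrophages of library 1. The part of this difference in the ratios was not tested.

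Mylip ran the other way. Macrophages of libraries 1 to 4 held 76.5, 43.3, 38.5 and 44.8 CPM and B cells 155.0, 117, 106 and 82.8, log2 ratios of -1.02, -1.43, -1.47 and -0.89. In macrophages, 11.2% to 20.9% of thinned cells held a Mylip UMI, and in B cells 22.2% to 37.6%. Every library showed the higher level and the higher share in B cells.

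Abcg1, Nr1h2 and Npc1 were not called between macrophages and B cells. Abcg1 stood at 59.1, 55.9, 46.4 and 31.8 CPM in macrophages and at 68.2, 49.1, 31.5 and 23.7 in B cells, with a log2 ratio of -0.21 in library 1 and 0.18 to 0.55 in the others. Library 1 was thus the one in which B cells held more Abcg1. Npc1 had log2 ratios of 0.39 to 1.02, and Nr1h2 of 0.11 to 0.53, positive in every library. Srebf1 had log2 ratios of 0.23 to 0.61.

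Nr1h3 was close to the limit of detection in B cells. They held 6, 1, 0 and 0 UMIs of it in libraries 1 to 4, against 125, 280, 286 and 250 UMIs in macrophages. Against a floor of 3 counts per library, macrophages of libraries 3 and 4 were at least 2.74-fold and at least 2.35-fold higher. In library 1, where both sets had counts, the log2 ratio was 3.29, with a counting interval of 2.23 to 4.87. T cells held 0, 0, 1 and 0 Nr1h3 UMIs from 289213 to 439740 UMIs in all, and the counting interval of the ratio to macrophages included 0 in every library, so that a difference was not detectable at this depth.

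Against T cells, Abca1, Pltp and Npc2 were higher in macrophages, 3 of 8 members at the minimum level, against 16.9% of all 5463 genes. No member was lower, against 20.4%. The median gene stood 0.24 (log2) lower in macrophages than in T cells, and with ratios centred on that median 1099 genes were higher and 802 lower, against 921 and 1116 uncentred. Abca1 had 8, 4, 7 and 0 UMIs in T cells, which is 22.3, 13.8, 19.3 and 0 CPM, and a floor of 3 counts puts the last at 6.82. Against that floor, macrophages of library 4 were at least 14.5-fold higher for Abca1, and the log2 ratios in libraries 1 to 3 were 3.45, 2.92 and 2.51. The exact interval in T cells of library 4 is wider and reaches 8.51% of the macrophage level.

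Pltp stood at 78.0, 79.5, 22.1 and 20.5 CPM in T cells (median log2 ratio of macrophages to T cells 4.64) and Npc2 at 317, 363, 295 and 352.5 (median log2 ratio 1.82). Both were lower in T cells of every library. Abcg1 had log2 ratios of 0.55 to 1.64 and was not called, but passed the rule with ratios centred on the median gene (median 1.16), with trimmed-mean scaling (1.31), with cells weighted equally (1.24) and without library 1 (1.11). Its T cell levels rest on 14, 7, 9 and 4 UMIs. Of its uncentred counting intervals, 2 lay above 0, and those of libraries 1 and 3 included 0. Mylip, Srebf1, Nr1h2 and Lpcat3 had ratios of both signs over the libraries, and each of their 16 counting intervals included 0.

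Free RNA and cell doublets can put macrophage transcripts into lymphocyte barcodes, and 5 macrophage genes that the gates did not use (C1qa, C1qb, Csf1r, Lyz2, Fcgr1) were used as a mark of it. The highest of them reached 3.27%, 3.52%, 3.66% and 3.03% of the macrophage level in B cells and 4.63%, 9.08%, 7.69% and 3.03% in T cells. In B cells, the lower counting limit of 9 members exceeded that mark in every library, and that of Nr1h3 in library 1 alone. In T cells 7 members exceeded it in every library, and Abca1, Nr1h3 and Pltp did so in none. The Pltp signal in B cells was 4.04% to 9.83% of the macrophage level and exceeded the mark narrowly in library 1, while in T cells it was 3.43% to 7.44% and its intervals did not clear the mark. These marks are point values. Highest upper limits of the 5 genes were 5.66%, 4.29%, 8.595% and 6.94% in B cells. In T cells they were 69.8%, 48.8%, 42.9% and 29.9%, all from Fcgr1 with 0 or 1 UMIs. Above these limits in B cells, Pltp's lower limit stood in library 2 alone and that of Nr1h3 in no library. In T cells of library 1, no member's lower limit exceeded them. Apoe, which is not among the 5 genes, gave a higher mark in B cells, at 25.3%, 6.95%, 10.25% and 3.99% of its macrophage level. Against that mark, the lower limit of 7 members in library 1, 8 in libraries 2 and 3 and 9 in library 4 was higher; Nr1h3 fell short in every library, Pltp in libraries 1 to 3 and Npc2 in library 1.

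**Figure D2:**
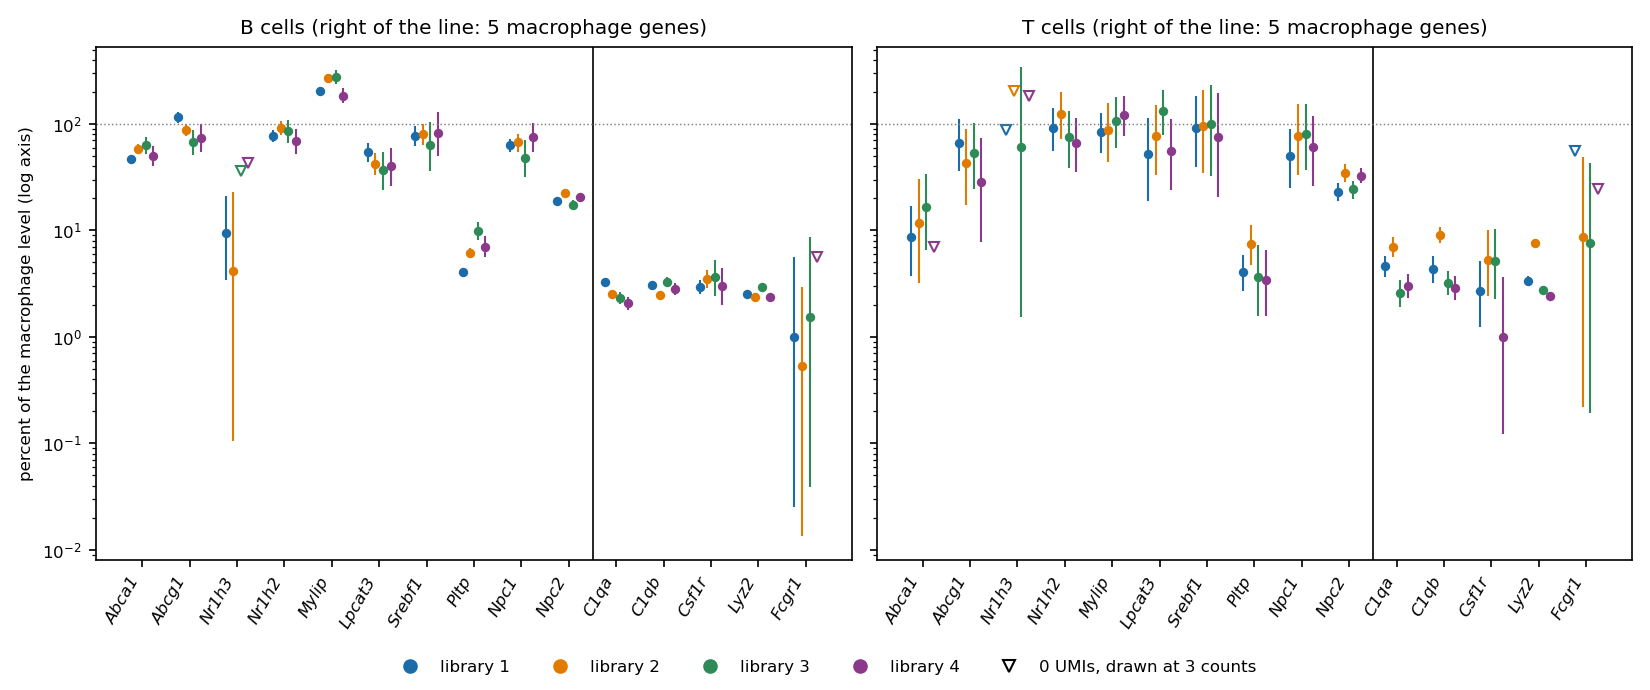
Level of each gene in B cells (left) and T cells (right) as a percent of its level in macrophages of the same library (log axis), with counting intervals; 100% is dotted and open triangles mark 0 UMIs, drawn at 3 counts. Where UMIs were found, the 5 macrophage genes right of the line stay at or below 3.66% in B cells and 9.08% in T cells, while Mylip in B cells lies above 100% and Nr1h2, Mylip and Srebf1 lie between 66.5% and 125% in T cells.

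Other genes of the pathway, taken from lists, were also set against lymphocytes. Of 14 further LXR targets, 9 reached the minimum level against B cells. Of these, 7 were higher in macrophages and 2 were lower, against 22.3% and 16.6% of all genes. The widest ratios among those higher were of Mertk, Lpl, Cd5l, Apoc4 and Apoe, and among those lower of Scd1. Apoe is the gene lost in 3 of the 4 groups, so its level in a library cannot be told apart from genotype. The median log2 ratio of those 9 was 3.57, against 0.01 for all genes tested. Scd1, which desaturates fatty acids, had 0.490 to 5.35 CPM in macrophages and 228 to 496 in B cells. Mertk, a receptor for dying cells, had 69.2 to 169 CPM in macrophages and 0 to 2.54 in B cells. Against T cells 7 of 8 were higher and 1 was lower, as were 16.9% and 20.4% of all genes. The lower gene was Fasn, the fatty acid synthase, named here because it stood alone on its side.

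Among genes of sterol synthesis and uptake, Insig1, which holds sterol sensors in the endoplasmic reticulum, was higher in macrophages than in B cells, and Srebf2, the master factor of sterol synthesis, was lower, at 15.9 to 44.5 CPM in macrophages and 53.0 to 91.5 in B cells. Of 12 receptor partners, 8 reached the level and 2 were called higher, a share near the 22.3% of all genes: Rxra, the dimer partner of the LXRs, with 38.2 to 77.0 CPM in macrophages and 1.88 to 2.84 in B cells, and the coactivator Ncoa1. Of 15 genes of lysosomal release and esterification, 9 reached the level and 6 were higher in macrophages (Lipa, Soat1, Nceh1, Scarb2, Lamp1, Lamp2), with 0 lower. The shares of all genes were 22.3% higher and 16.6% lower. Lipa, the lysosomal acid lipase, had 115.5 to 215.5 CPM in macrophages and 32.6 to 46.4 in B cells.

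Within macrophages, 3 gates were read, each against all macrophages below it in the same library. Timd4 marks large resident cells, and at least 3 UMIs were found in 122, 541, 2069 and 2655 macrophages of libraries 1 to 4. Folr2, a folate receptor of some resident macrophages, reached 2 UMIs in 854, 952, 321 and 303. Ccr2, a chemokine receptor of monocyte-derived cells, reached 3 UMIs in 169, 801, 144 and 285. Each gate is set on raw UMIs, and its cells had a higher median depth than those below it in every library. For Folr2 it was 9124.5, 13885, 15178 and 15424 UMIs in the gate and 6701.5, 12247, 13857 and 12800 below it. Median mitochondrial share was 5.015%, 4.32%, 4.28% and 4.09% in the Timd4 gate and 5.18%, 3.54%, 4.20% and 4.05% below it. The part of both in the ratios was not tested. The gates overlap: 47 to 139 macrophages per library passed both Timd4 and Folr2, 26 to 165 both Folr2 and Ccr2, and 2 to 38 both Timd4 and Ccr2. Marker sums moved with the gates, and their part in the results on the members was not tested. The 9 large peritoneal markers include Timd4, whose level its own gate sets; the other 8 summed to 8739 to 10014 CPM in the Timd4 gate and 5699 to 8630 below it. All 9 summed to 5159 to 7210 in the Folr2 gate and 7412 to 9815 below it, and 2490 to 5723 in the Ccr2 gate and 6644 to 9777 below it. The 11 small peritoneal markers include Ccr2 and Folr2, and without Ccr2 they summed to 20387 to 52268 in the Ccr2 gate and 3274 to 13415 below it. No large peritoneal marker was at 0 in any of these sets.

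No member passed the rule for a call in any of the 3 gates. Of 8 members at the minimum level, 0 were called higher and 0 lower in each gate, against 0.341% higher and 0.256% lower of 4692 genes in the Timd4 gate, 0.413% and 0.227% of 4839 genes in the Folr2 gate, and 0.369% and 0.574% of 4882 genes in the Ccr2 gate. Calls of this size were rare for all genes, so smaller shifts are given below as values, with the share of genes that do the same. In the Timd4 gate 4 of the 10 members were higher in every library, against 24.0% of genes at the minimum level, and 1 was lower, against 12.1%. The counts were 7 higher (43.9%) and 1 lower (8.93%) in the Folr2 gate, and 1 higher (23.7%) and 5 lower (12.2%) in the Ccr2 gate. These counts are of all 10 members, while the shares are of genes at the minimum level. Nr1h3, which was below that level, was 1 of those higher in the Timd4 gate and in the Folr2 gate.

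Macrophages in the Timd4 gate held more Abcg1 and Mylip and less Pltp in every library. Abcg1 stood at 77.9, 95, 54.8 and 37.3 CPM in the gate and 57.4, 49.0, 37.5 and 24.5 below it, log2 ratios of 0.45, 0.96, 0.55 and 0.61. Mylip stood at 107, 58.3, 40.5 and 49.7 in the gate and 73.6, 40.7, 36.4 and 38.4 below it. All counting intervals of these ratios lay above 0, a pattern that 6.14% of all genes at the minimum level shared. Pltp was the reverse, at 1294, 913, 553 and 587 CPM in the gate and 1993, 1097, 652 and 611 below it, log2 ratios of -0.62, -0.26, -0.24 and -0.06, a pattern shared by 2.39% of genes.

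Abca1 in the Timd4 gate split by library. It stood at 257, 199, 134 and 113 CPM in the gate and 259.7, 103, 99.7 and 79.1 below it. Library 1 showed no difference beyond counting error (log2 ratio -0.02, interval -0.20 to 0.16), while libraries 2 to 4 had 0.94, 0.43 and 0.52. Nr1h3 had 13.3, 10.1, 5.43 and 4.39 CPM in the gate and 9.07, 4.16, 3.60 and 2.80 below it, higher in every library, with the interval of library 1 reaching below 0. Lpcat3 had log2 ratios of 0.08 to 0.50, Npc1 of -0.10 to 0.31, Npc2 of -0.01 to 0.15, Nr1h2 of -0.23 to 0.05 and Srebf1 of -0.17 to 0.10. Abcg1 passed the rule with cells above 5% mitochondrial UMIs left out (median log2 ratio 0.67, against 0.58).

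The Folr2 gate had the widest set of members on 1 side. Nr1h3, Abca1, Abcg1, Mylip, Pltp and Npc1 were higher in the gate in all 4 libraries, each with counting intervals above 0. The same was so of 11.7% of all genes at the minimum level, which Nr1h3 did not reach. No member had all its intervals below 0, as 4.07% of genes did. The median gene also stood higher in this gate, by 0.04, 0.11, 0.16 and 0.16 (log2) in libraries 1 to 4, so each member is set against that shift. Pltp stood at 2174, 1243, 1026 and 923 CPM in the gate and 1562, 1009, 562 and 571 below it, a median log2 ratio of 0.59, or 0.48 after centring on the median gene. Abca1 stood at 299, 144, 168 and 112 in the gate and 198, 108.5, 113 and 97.5 below it, 0.49 at the median and 0.36 centred. Both genes were higher in the gate in every library by more than counting error before centring, but in library 4 the Abca1 ratio of 0.20 was close to the median gene's 0.16.

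Abcg1 stood at 66.2, 69.1, 65.3 and 49.8 CPM in the Folr2 gate and 48.2, 51.3, 44.7 and 30.3 below it (median log2 ratio 0.50, centred 0.40). Nr1h3 stood at 11.3, 7.20, 8.56 and 10.0 CPM in the gate and 6.53, 4.31, 4.17 and 3.19 below it, from 46 to 103 UMIs in the gate (0.91, centred 0.81). The Nr1h3 sets did not overlap, 7.20 being the lowest value in the gate and 6.53 the highest below it. Mylip had a median log2 ratio of 0.36 (centred 0.25) and Npc1 of 0.29 (centred 0.19). Nr1h2, Lpcat3 and Npc2 had medians of 0.08, 0.10 and -0.02, and after centring all 3 were below 0, at -0.03, -0.05 and -0.17. Srebf1 was 0.29 at the median and -0.15 in library 1. The 5 cycling markers summed to 35.9, 261, 317 and 312 CPM in the Folr2 gate and 10.6, 116, 138 and 99.3 below it, and with cycling cells left out the median log2 ratios were 0.94 for Nr1h3, 0.66 for Pltp, 0.54 for Abcg1, 0.53 for Abca1, 0.43 for Mylip and 0.36 for Npc1.

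In the Ccr2 gate, Abca1 and Npc2 were lower and Pltp was higher. Abca1 stood at 169.6, 100.4, 86.2 and 64.1 CPM in the gate and 274, 122, 119 and 101 below it, log2 ratios of -0.69, -0.28, -0.46 and -0.65. Npc2 stood at 1289, 1032, 1036 and 965 in the gate and 1386, 1056, 1222 and 1085 below it, a median log2 ratio of -0.14. Counting intervals lay below 0 in every library for both genes, as for 4.34% of all genes. Pltp stood at 2348, 1193, 911 and 684.5 in the gate and 1866, 1038, 589 and 592 below it, above counting error in every library, as for 5.53% of all genes, with a median log2 ratio of 0.27. Mylip had log2 ratios of -0.69, -0.14, -0.29 and -0.58, and Abcg1 and Lpcat3 were also below 0 in all 4 libraries, with medians of -0.16 and -0.25. The median gene stood higher in this gate by 0.15 and 0.11 in libraries 3 and 4, and centring left the medians of Abca1 at -0.63, Npc2 at -0.17 and Pltp at 0.28. Nr1h3 had ratios of both signs, the highest being 1.18 in library 3 from 23 UMIs in the gate. The 5 cycling markers summed to 9.21, 258, 737 and 636 CPM in the Ccr2 gate of libraries 1 to 4 and 28.6, 127, 130.4 and 80.8 below it, higher in the gate in libraries 2 to 4. With cycling cells left out, the median log2 ratios were -0.54 for Abca1, -0.11 for Npc2, 0.35 for Pltp and -0.40 for Mylip. The 7 dendritic cell markers summed to 43.9, 5.81, 46.1 and 70.5 CPM in the gate and 17.4, 1.94, 7.17 and 6.85 below it, higher in the gate in every library, with Ccr7 at 0 in the gate of libraries 1 and 4 and Xcr1 at 0 below it in library 3; their part was not tested. Median mitochondrial share was lower in the Ccr2 gate (3.31% to 3.82%) than below it (3.73% to 5.29%). Among cells with at most 5% mitochondrial UMIs, the medians were -0.56 for Abca1, -0.12 for Npc2, 0.31 for Pltp and -0.38 for Mylip.

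**Figure D3:**
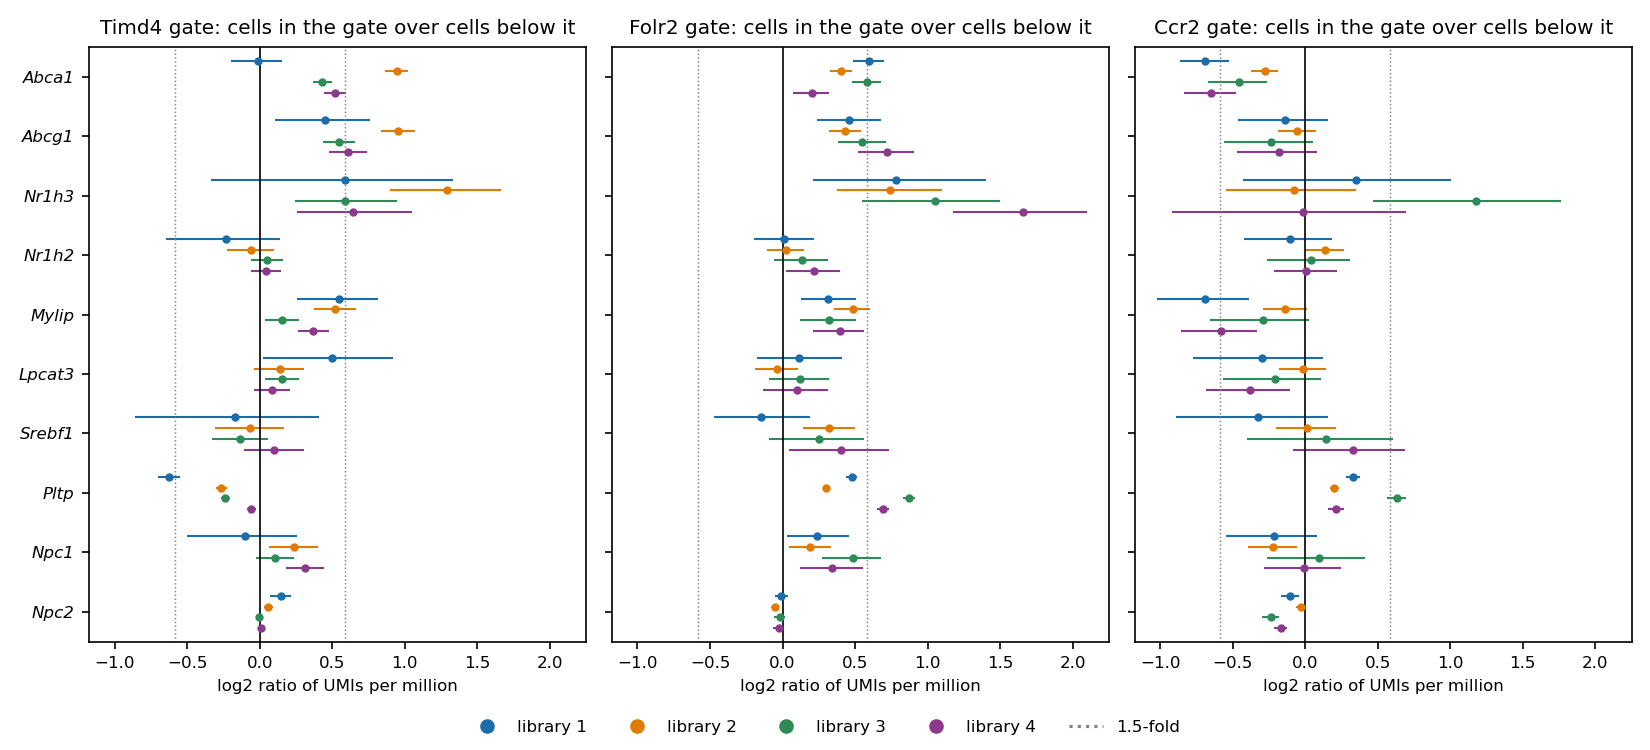
Log2 ratio of CPM, macrophages in each gate over macrophages below it, for the 10 genes; each point is 1 library with its counting interval, the solid line is equality and the dotted lines are 1.5-fold. Abcg1 lies right of the solid line in the Timd4 and Folr2 gates in all 4 libraries, Pltp lies left of it in the Timd4 gate and right of it in the other gates, and Abca1 lies left of it in the Ccr2 gate.

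The share of cells with an Abca1 UMI was also higher in the Folr2 gate and lower in the Ccr2 gate in every library. At 3000 UMIs per cell, 52.9%, 33.4%, 36.6% and 30.0% of macrophages in the Folr2 gate held an Abca1 UMI, against 40.1%, 26.0%, 25.8% and 24.0% below it (unthinned, 65.3% to 79.2% in the gate and 56.0% to 63.9% below it). In the Ccr2 gate the Abca1 shares were 37.7%, 22.8%, 20.1% and 19.6%, against 48.8%, 28.8%, 26.9% and 24.6% below it (unthinned, 45.3% to 59.2% in the gate and 57.5% to 70.0% below it). Thinned Abca1 shares in B cells were 32.8%, 19.9%, 19.0% and 11.9%, and in T cells 0% to 7.14%. There 0 of the 64 T cells of library 4 with at least 3000 UMIs, set against a floor of 3 cells, stands for a share of up to 4.69%.

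Since the gates overlap, the macrophages were also split into sets that do not. The Folr2 gate was read apart below and within the Timd4 gate, a split added after the data had been seen. The 6 genes named first were picked by their ratios in the whole Folr2 gate, whose cells the split divides. Their values are therefore no separate support. The shares beside them are of genes that were not picked so, at a minimum level that Nr1h3 did not reach. Below the Timd4 gate, 807, 820, 189 and 164 cells were in the Folr2 gate, and Abca1 (median log2 ratio 0.54), Abcg1 (0.40), Nr1h3 (0.75), Mylip (0.41), Pltp (0.53) and Npc1 (0.31) were above 0 in every library, as were 39.6% of genes at the minimum level. Of their 24 ratios, 6 had counting intervals that included 0, and Pltp was the one gene with none of these. Within the Timd4 gate, the Folr2 gate held 47 to 139 cells, and the same 6 genes were above 0 in every library. Their medians were 0.45, 0.71, 1.65, 0.39, 0.80 and 0.37, and 36.3% of genes at the minimum level were also above 0 in every library. There 3 of the 24 intervals included 0, those of Abca1 and Nr1h3 in library 2 and of Mylip in library 1. Of the members not picked, Nr1h2, Lpcat3 and Srebf1 had ratios of both signs below and within the Timd4 gate. Npc2 had both signs below it and was under 0 in every library within it. No member was called in either split, against 0.373% of genes called higher below the Timd4 gate and 1.06% within it. The Ccr2 gate taken below the Timd4 gate left Abca1 at a median of -0.31, Mylip at -0.48 and Pltp at 0.27, each with 1 sign in every library (10.2% of genes were lower in every library and 23.8% higher), and Abcg1 at -0.01 with both signs.

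In the sets that do not overlap, Abca1 was lowest in cells that passed the Ccr2 gate alone in libraries 1, 3 and 4, at 135, 86.5 and 54.6 CPM. In library 3 the counting interval overlapped that of cells below all gates (95.7). In library 2 cells that passed the Ccr2 gate alone held 94.7, and cells below all gates 93.5. Abcg1 was higher in the Timd4 gate (77.9, 95, 54.8 and 37.3) than in cells below all gates (46.6, 43.7, 35.3 and 23.7) in every library. Pltp was highest in the Ccr2 set of library 1 (2377) and in the Folr2 set of libraries 2, 3 and 4 (1267, 1096 and 912). Abca1 was highest in the Folr2 set of libraries 1 and 3 (298 and 143) and in the Timd4 set of libraries 2 and 4 (199 and 113). Abcg1 was highest in the Timd4 set, except in library 3, where the Folr2 set held 59.1. The intervals of the Timd4 and Folr2 sets overlapped for Abca1 in libraries 1 and 3 and for Abcg1 in libraries 1, 3 and 4. The highest set thus differed between Abca1 and Pltp in libraries 1, 2 and 4. Between Abcg1 and Pltp it differed beyond counting intervals in library 2. From library to library, the highest set changed beyond counting intervals for Pltp alone.

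**Figure D4:**
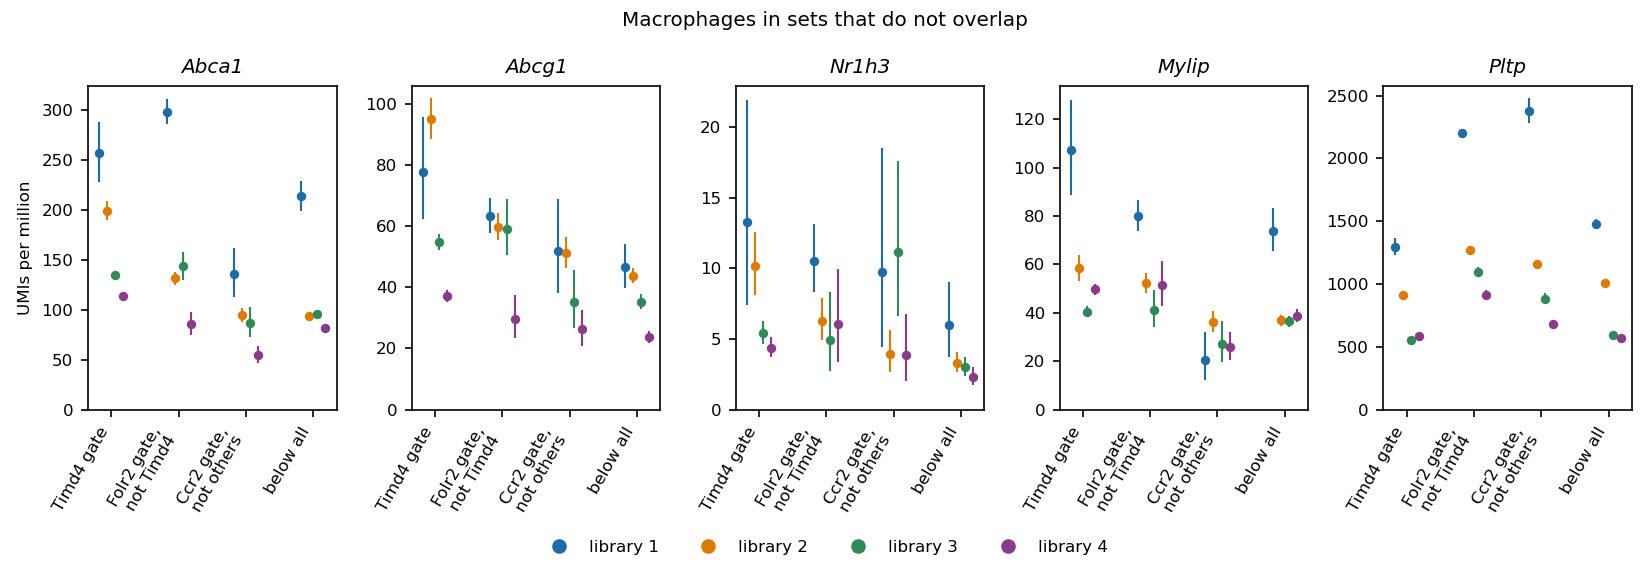
CPM of Abca1, Abcg1, Nr1h3, Mylip and Pltp in 4 macrophage sets that share no cell, by library, with exact Poisson 95% intervals. Abcg1 is higher in the Timd4 set than in cells below all gates in each library, and Pltp in the Timd4 set lies below the Folr2 and Ccr2 sets in each library. Mylip is lowest in the Ccr2 set, but in libraries 2 and 3 its interval overlaps that of cells below all gates, and in library 3 also that of the Folr2 set.

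Of the other pathway lists, 1 gene was called in a gate. Cd5l, an LXR target that is also a large peritoneal marker, was lower in the Ccr2 gate, at 359, 799, 538 and 455 CPM in the gate and 957, 1224, 918 and 712.5 below it. No gene of the other lists was called in the Timd4 or Folr2 gate. Of the 6 oxysterol enzymes, which make or clear LXR ligands, Cyp27a1 had 12.2 to 32.0 CPM in macrophages, and Ch25h had 0, 0, 5 and 0 UMIs.

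Over the 16 points formed by 4 sets and 4 libraries, genes whose levels were among the most like those of Abca1 were Tpp1 (Pearson r of log2 levels 0.96), Twf1, mt-Nd1 and Rhoq (each 0.95), out of 5364 genes. Among the members, Npc1 (0.88), Abcg1 (0.81) and Npc2 (0.80) were most like Abca1. With library means removed, Mylip (0.82) and Abcg1 (0.81) were the members most like it, and Pltp had a value of -0.20. The genes most like Nr1h3 were Hdgf (0.90), Stub1 (0.89), Ap3s1 and Dpp9 (each 0.88) and Ctbp1 (0.87), the highest of 5365 genes. Its 16 points rest on 9 to 176 Nr1h3 UMIs each, so counting error is part of their spread. The points share library, depth and the sets' sizes, and these values are descriptions.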

How the data were processed

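Peritoneal cells were sorted for F4/80, a macrophage surface protein, before droplet capture and 3′-end sequencing with unique molecular identifiers (UMIs), per the labels' protocols. The deposited matrix holds UMI counts per gene and barcode, which came from Cell Ranger 5.0.1 as the authors ran it, per the file headers. Seurat and CASAVA 1.8 are named in the submitters' processing notes. The notes name mm10 as the genome build, and gene annotation and strand setting were not given in the sources used here. All 4 samples share 1 matrix, and a number at the end of each barcode separates 4 libraries. No label or header ties that number to a sample, so genotypes, diets and antibody were not compared.

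Barcodes with at least 500 genes and at most 10% mitochondrial UMIs were kept with Python 3.11.15. No doublet caller was run. UMIs were summed over cells and divided by all UMIs of those cells (CPM). Within each library, 0.5 was added to both UMI sums of a log2 ratio. A gene was called where the higher set reached 20 CPM and 1.5-fold, with 1 sign, in all 4 libraries. Each group has 1 library, and cells of 1 library do not replicate a condition; hence no test was run. Intervals are 95% (exact Poisson for sums, Clopper-Pearson for shares and ratios) and, like the limit of 3 counts used where no UMI was found, cover counting error only. Shares of cells were taken after thinning each cell to 3000 UMIs, and cells with fewer were left out. These were 24 to 85 macrophages, 14 to 48 B cells and 1 to 10 T cells per library. The calling code was tested on simulated data. Sequences came from RefSeq promoters of GRCm38.p6 and gene positions from GENCODE on GRCm38. The 10 genes, the lists beside them and the alternatives were chosen with earlier results of these data known. The genes named are the 10 members, list genes that were called (at most 6 per list, by size), and the 5 genes most like Abca1 and Nr1h3; some genes that this rule names are not reported here.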

Additional observations from a re-analysis of the deposited data

How the results depend on the processing

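Depth limits the T cells most, which hold 61, 52, 79 and 74 cells per library, and Nr1h3, which stayed under 20 CPM in macrophages of every library. No called value reversed its direction under any alternative run. Uncalled median log2 ratios changed sign under some alternatives for Nr1h2, Nr1h3, Lpcat3, Srebf1, Npc1 and Npc2 in gates and for Nr1h2, Mylip and Srebf1 against T cells. Under trimmed-mean scaling, those of Nr1h2 and Lpcat3 in the Folr2 gate were -0.02 and -0.06, that of Nr1h2 in the Ccr2 gate -0.10, and those of Mylip and Srebf1 against T cells 0.33 and 0.35. The counts of genes called moved with the rule of size. With a minimum of 5 CPM, 46 genes were higher and 21 lower in the Timd4 gate, 42 and 27 in the Folr2 gate, 44 and 60 in the Ccr2 gate, 1795 and 1428 in macrophages against B cells, and 1685 lower against T cells. The call in the Folr2 gate then included 1 member, Nr1h3. With no minimum, the counts were 211 and 62, 285 and 113, 387 and 150, 2524 and 2767, and 1458 and 4207 in the same order of comparisons, with 1 member (Nr1h3) higher in each of the Timd4 and Folr2 gates. At 2-fold, the gates called 3 and 4, 5 and 3, and 6 and 12 genes, 514 genes were lower than in B cells and 622 lower than in T cells, and against B cells 2 members were higher (Pltp, Npc2) and 0 lower. At 1.2-fold, the gates called 98 and 38, 194 and 38, and 82 and 107 genes, 1478 genes were lower than in B cells and 1752 lower than in T cells. Members then called were 1 higher in the Timd4 gate (Abcg1), 3 higher in the Folr2 gate (Abcg1, Mylip, Pltp) and 1 lower in the Ccr2 gate (Abca1). These shifts follow from the rules' construction. For the others, the cause was not tested: 1 member (Abcg1) higher in the Timd4 gate at no more than 5% mitochondrial UMIs, 26 genes higher in the Timd4 gate against cells with 0 Timd4 UMIs, 1246 genes higher and 660 lower than in T cells with trimmed-mean scaling, and 1 member at 2-fold over libraries after median scaling, which was chosen after seeing the data.

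Leaving out each library in turn keeps fewer libraries to pass. It gave 16 to 22 genes higher and 13 to 16 lower in the Timd4 gate, 20 to 68 and 11 to 37 in the Folr2 gate, 18 to 81 and 28 to 99 in the Ccr2 gate, 1251 to 1307 and 926 to 1051 against B cells, and 978 to 1028 and 1258 to 1340 against T cells. The highest Folr2 count came without library 1 (68), with 42 and 37 without library 2, and the highest Ccr2 counts without library 2 (81 and 99), with 38 higher without library 1. Members called stayed at 0 in each gate and at 4 higher and 1 lower against B cells, and were 3 to 4 higher and 0 lower against T cells. The members at 2-fold over libraries numbered 0 to 4, with 0 without library 1. No paired analysis was possible because the labels give replicate number 1 alone and no library is tied to a group; ratios between cell sets were each taken within a library, and no test was run over the 4 libraries.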
